A study of Zea mays with 30 samples.

Results

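The genes described here are the maize genes that make, split or carry sucrose and hexoses. They were taken by symbol or synonym from the gene annotation of the spots, as *sh1*, *mn1* or *sus*, or as *sus*, *incw*, *ivr*, *sps*, *sut* or *mst* followed by a number. The rule found 31 of 49280 spots, which belong to 6 of the 866 genes with a listed spot. The spots comprised 14 of *sus1*, 11 of *sh1*, 3 of *sut1* and 1 each of *mn1*, *sps1* and *MST1*. Another 8 genes matched by the rule, among them *sus2*, *ivr2*, *incw1*, *sut2* and *sut4*, have no listed spot in the annotation used and were not analysed here.

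Sucrose made in leaves moves through the phloem and feeds growing tissues, which do not fix enough carbon of their own. In the receiving cells sucrose is split in one of 2 ways. Sucrose synthase, a cytosolic enzyme, turns it into fructose and UDP-glucose, and in maize *sh1* (*shrunken1*) and *sus1* encode isoforms of it. Invertases split it into glucose and fructose, and *mn1* (*miniature1*, also called *Incw2*) encodes a cell wall invertase best known from the base of the developing kernel. *sps1* encodes sucrose phosphate synthase, an enzyme of sucrose synthesis. *sut1* encodes a sucrose transporter of the plasma membrane that loads the phloem of leaves, and *MST1* bears the symbol of monosaccharide transporters. In what follows the sucrose synthase and invertase genes are called cleavage genes, and *sut1* and *MST1* transport genes.

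RNA of the whole shoot apical meristem (SAM), the meristem proper with the founder cells of the next leaf, was compared between ns mutant and nonmutant seedlings 2 weeks old. The ns mutants carried *ns1-R* and *ns2-R*, and their nonmutant siblings *Ns1/ns1-R* and *ns2-R*, so that both groups were homozygous for *ns2-R* and differed at the WOX homeobox gene *ns1* in a near-isogenic line. Each replicate was a pool of laser-microdissected SAMs, whose RNA was amplified linearly by T7 RNA polymerase, labelled with Cy dyes and hybridized as an ns and nonmutant pair on 1 array. The cDNA chips are called SAM 1.1, SAM 2.0 and, with its scans at low, mid and high settings averaged, SAM 3.0. There were 6 arrays of each chip, 3 with the ns RNA on Cy5 and 3 with it on Cy3, and the study's methods describe 6 biological replicates in all, so the chips are not counted as separate sets of plants. Each meristem was sampled whole, so a gene used by fewer cells and one with less RNA per cell cannot be told apart.

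The chips hold 19200, 14080 and 16000 spots, and the median signal over local background of their arrays ranged from 3.32 to 41.1. The study's methods count only part of the spots as informative. Percentiles, chip medians and shares of all spots are taken here over all of them, so they are not ranks among informative cDNAs alone. Of the marker genes of the meristem, such as *kn1*, *lg3* and *fea2*, 11 of 18 spots lay above the median signal of their chip, against 3 of 16 spots of green leaf genes and 0 of 2 spots of endosperm genes. None of the 36 marker spots was called by limma. At an unadjusted p under 0.05 there were 3 of 16 leaf spots and 2 of 18 meristem spots. Of all spots of the 3 chips 5.18%, 6.48% and 5.19% lay there. The 3 leaf spots were all of the C4 gene *ppdk1* on SAM 2.0 and higher in the ns mutant SAM, up to log2 0.61 (limma adjusted p = 0.371). The 2 meristem spots were *kn1* probe 4915 at log2 -0.35 and *ns1* probe 8527 at 0.21. The other *ns1* spot of SAM 3.0, probe 11727, went the other way, at -0.40. The other *kn1* spots lay between -0.18 and 0.03. The other leaf genes did not follow *ppdk1*, with *me3* between -0.21 and -0.01 at its 4 spots, *pep1* at -0.02 and *rbcs* between -0.08 and 0.13. The part of leaf RNA in the values below was not tested. On SAM 1.1 replicate 1 stands apart. Without it the share of all spots called at an adjusted p under 0.05 was 2.11%, against 0.0104% with it. Ratios named on SAM 1.1 are therefore also given without replicate 1 where they change sign or fall under an unadjusted p of 0.05. This covers the spots found by the gene rule. Ratios of the marker genes and of other genes outside the rule were not read without replicate 1. On SAM 2.0, 12.2% of all spots had an unadjusted p under 0.05 in limma without replicate 5, against 6.48% with it. On SAM 3.0 it was 8.79% without replicate 6, against 5.19% with it.

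The cleavage and transport genes were first set side by side by signal. Signals are given relative to the median of the chip, and the place of a spot among all spots of its chip as a percentile. Spots of different cDNAs bind RNA differently and have no common scale, so these are brightnesses of spots and not amounts of transcript. Of the 4 transport spots, 1 was brighter than the median spot of its chip, and of the 26 cleavage spots 22 were. The transport spots ranged from the 1.60 to the 96.0 percentile and the cleavage spots from the 21.4 to the 99.5 percentile. Sucrose synthase cDNAs were thus among the brightest on every chip, and the 2 classes overlapped. The highest percentile was that of *sus1* probe 166 of SAM 3.0, at 15.8 times the chip median in ns mutant SAMs and 16.0 times in nonmutant SAMs. Its signal was 108 and 175 times the local background. On SAM 1.1 *sus1* probe 19132 stood at the 99.2 percentile, with 1 saturated reading, and on SAM 2.0 *sh1* probe 11511 at the 98.3 percentile. Spots of 1 gene spread widely. The *sh1* spots of SAM 1.1 lay between the 27.5 and the 93.3 percentile, and the *sus1* spots of SAM 3.0 between the 21.4 and the 99.5 percentile.

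The only invertase spot, *mn1* probe 12482 of SAM 3.0, was dimmer than most sucrose synthase spots, at the 33.5 percentile and with ns SAMs at 3.72 times and nonmutant SAMs at 5.88 times the background. *sps1* on SAM 2.0 was dimmer still, with ns SAMs at 1.59 times and nonmutant SAMs at 1.82 times the background. *MST1*, with 1.41 times background in both, lay at the 1.60 percentile of its chip. The 3 *sut1* spots of SAM 3.0 stood at the 12.3, 42.9 and 96.0 percentile. Probes 6557 and 8334, the brighter of these, carry the same cDNA accession, DN219973. They read 0.772 and 8.46 times the chip median in ns mutant SAMs, and 0.733 and 7.91 times in nonmutant SAMs. A brightness of *sut1* can therefore not be read from these spots beyond the statement that the accession gave a bright spot in one place and a middling one in another.

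**Figure D1:**
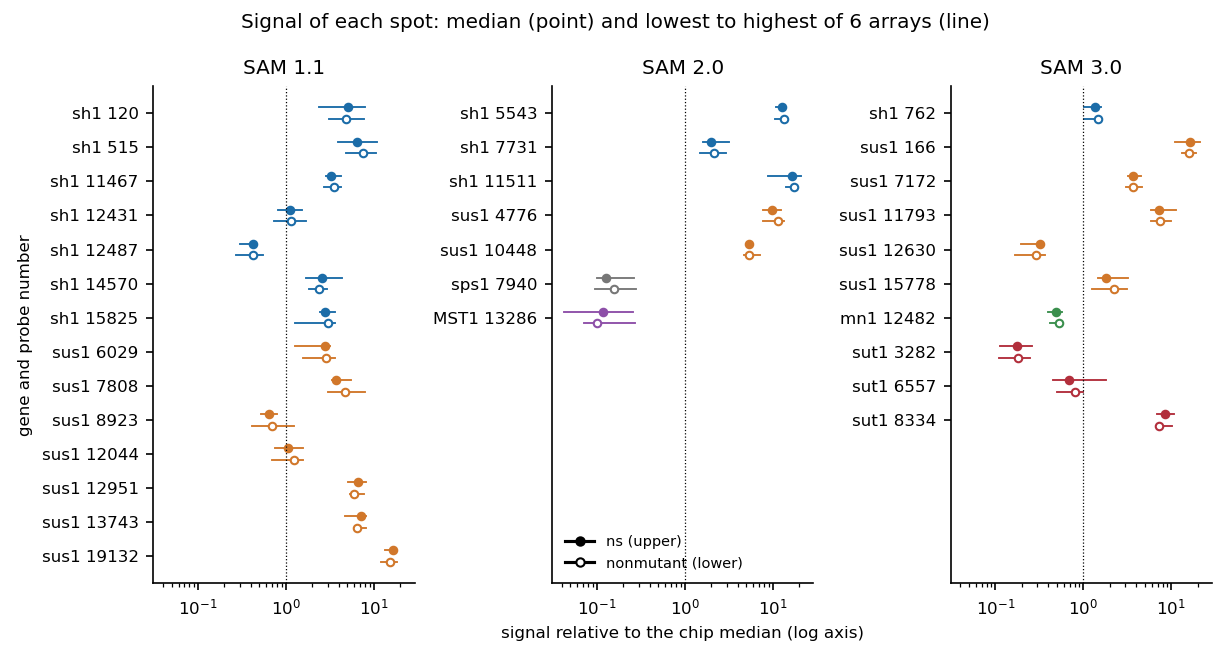
Signal of each of the 31 spots relative to the median of its chip (log axis), for ns mutant (filled, upper) and nonmutant SAMs (open, lower). Points are medians and lines run from the lowest to the highest of 6 arrays. The ranges of both groups overlap at all 31 spots, a count that was not made over all spots of the chips.

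None of the 31 spots differed between ns mutant and nonmutant SAMs at an adjusted p under 0.05 from limma (adjusted p from 0.837 to 0.999). Over the whole of each chip 0.0104% (SAM 1.1), 0.0355% (SAM 2.0) and 0.0125% (SAM 3.0) of spots were called, so that no call among 31 spots is what the background gives. At an unadjusted p under 0.05 there were also 0 of 31, where 5.18%, 6.48% and 5.19% of all spots of the 3 chips lay. The ratios of ns to nonmutant signal ranged from 0.868 to 1.09. All 31 confidence intervals (95%) contained 1, and together they reached from 0.682 to 1.38. They use limma's moderated SE, in which the variance of a spot is drawn towards that of all spots of its chip. In this fit a change of the signal ratio by a factor of 2 lay outside the interval of every spot. For *MST1* this did not hold under every background correction, as described below. The offset added in background correction also brings the ratios of dim spots nearer to 1. At spots near background, such as *MST1*, *sps1* and *sut1* probe 3282, the intervals therefore do not exclude a change of RNA by that factor. At all 31 spots the SD between the 6 arrays was larger than the log2 ratio, and at none did the ratio have the same sign on all 6 arrays. These counts were not made over all spots of the chips, so they are not read as a trait of the sugar genes.

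By sign, 20 of the 31 ratios were below 1 and 11 above, a split that single replicates decide. Without replicate 4 there were 13 below and 18 above, and without replicate 2 there were 23 below and 8 above. The 4 transport spots were all above 1, with a median log2 ratio of 0.07. Of the 26 cleavage spots 7 were above 1 and 19 below, with a median of -0.05. Spots of 1 gene read the same RNA on the same arrays, so these are not 31 separate measurements. Taking all spots, 45.6%, 50.9% and 49.6% of the ratios were above 1 on the 3 chips in the same order, with median log2 ratios of -0.02, 0.0037 and -0.00097.

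**Figure D2:**
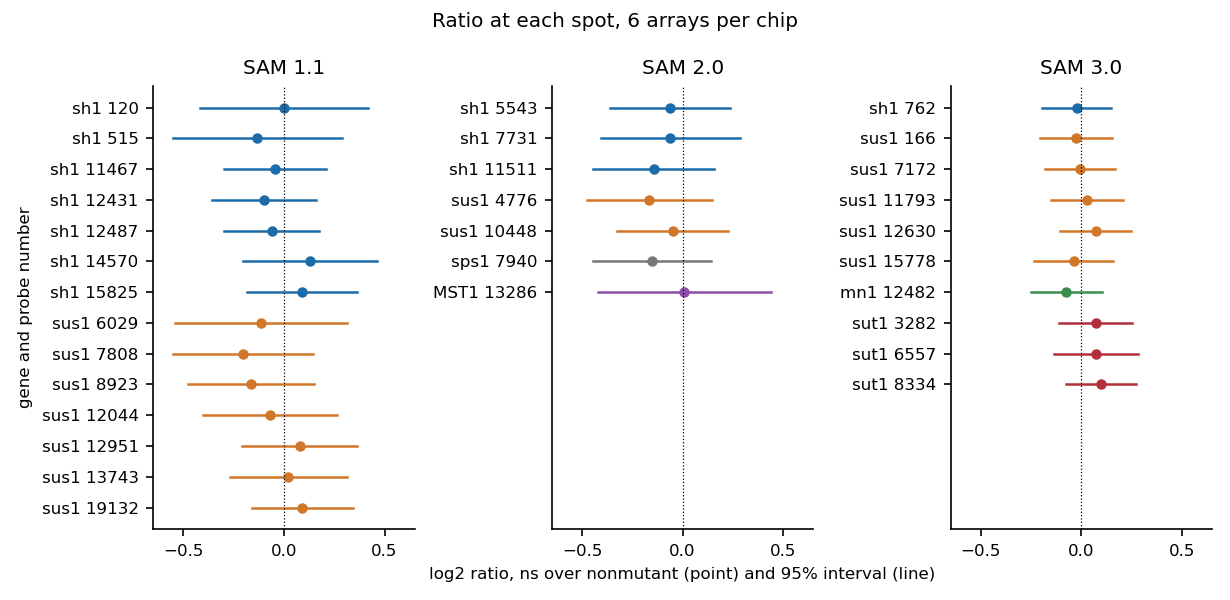
Log2 ratio of ns over nonmutant signal at each of the 31 spots (points) with its 95% confidence interval (lines), by chip. Every line crosses 0, and the lines are shorter on SAM 3.0 than on the other chips.

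**Figure D3:**
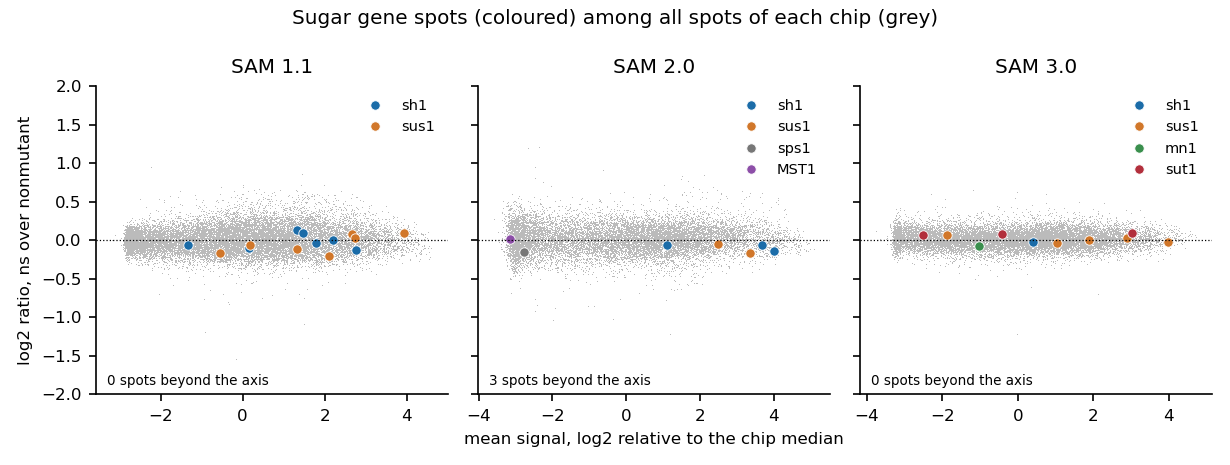
Log2 ratio of ns over nonmutant against mean signal (log2, relative to the chip median) for all spots of each chip (grey) and for the sugar genes (coloured). The coloured points lie between -0.20 and 0.13 on the ratio axis, inside the cloud of the other spots, and 3 grey points of SAM 2.0 lie beyond the axis.

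*sus1* was measured most often. Averaged over its spots, its log2 ratio was -0.05 ± 0.13 over the 7 spots of SAM 1.1 (limma adjusted p = 0.944). It was -0.11 ± 0.13 over the pair of spots on SAM 2.0 (adjusted p = 0.916). Over the 5 of SAM 3.0 it was 0.0066 ± 0.079 (adjusted p = 0.994, by limma as throughout). Here and below ± gives limma's moderated SE of a log2 ratio fitted to 6 arrays. At spots that vary more than most, such as *MST1*, it is smaller than their own arrays alone would give. The largest difference of any spot was at *sus1* probe 7808 of SAM 1.1. Its signal ran from 3.33 to 5.49 (median 3.72) times the chip median in ns mutant SAMs, and from 2.99 to 7.90 (median 4.64) times in nonmutant SAMs. The ns range lies inside the nonmutant range. The ratio was 0.868 (log2 -0.20 ± 0.16; limma adjusted p = 0.837), below 1 on 4 of the 6 arrays. The dyes themselves shifted this spot by log2 0.47 (Cy5 minus Cy3), more than the genotypes did. Without replicate 1 the log2 ratio of probe 7808 was -0.32 and that of *sus1* probe 6029 was -0.34, both with an unadjusted p under 0.05, at which 16.2% of all spots of that chip then lay (limma adjusted p = 0.303 and adjusted p = 0.279).

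On SAM 2.0 both *sus1* spots were below 1. Probe 4776 read from 7.75 to 12.4 (median 9.77) times the chip median in ns mutant SAMs, and from 7.78 to 13.4 (median 11.5) times in nonmutant SAMs. The groups overlap over most of their range. The log2 ratio was -0.17 ± 0.15 (limma adjusted p = 0.856), and 5 of 6 arrays were below 0. It was -0.02 without replicate 3 and -0.31 without replicate 5, where 12.2% of all spots of the chip had an unadjusted p under 0.05 in limma. On SAM 3.0, where the spread between arrays was smaller, the 5 *sus1* spots lay between -0.04 and 0.07. The highest, probe 12630, is a dim spot that read from 0.197 to 0.346 (median 0.321) times the chip median in ns mutant SAMs, and from 0.169 to 0.370 (median 0.290) times in nonmutant SAMs. The *sus1* ratios thus lay on either side of 1, within their spread.

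*sh1* was below 1 at 9 of its 11 spots. Its mean log2 ratio was -0.02 ± 0.13 over the 7 spots of SAM 1.1 (limma adjusted p = 0.983). It was -0.09 ± 0.14 over the 3 of SAM 2.0 (adjusted p = 0.937) and -0.02 ± 0.08 at the only one of SAM 3.0 (adjusted p = 0.975). On SAM 1.1 the mean turned to 0.06 without replicate 1. The *sh1* spots of SAM 1.1 included both the highest ratio of the 31, log2 0.13 at probe 14570, and one of -0.13, at probe 515. The value of probe 515 rests on single arrays, being 0.09 without replicate 1 and -0.34 without replicate 3 (unadjusted p = 0.0469 in limma, where 3.16% of all spots of the chip were under 0.05). Probe 515 and probe 120 were also among the most variable spots, with SDs of 0.592 and 0.588 between arrays against a median SD of 0.271 over the chip. The single *sh1* spot of SAM 3.0, probe 762, had the smallest SD of all, 0.125, and read from 1.02 to 1.59 (median 1.35) times the chip median in ns mutant SAMs and from 1.03 to 1.51 (median 1.46) times in nonmutant SAMs. *sh1* and *sus1* encode related enzymes, and whether a cDNA of one gene also bound RNA of the other was not tested.

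The invertase gene *mn1* had a ratio of 0.950 (log2 -0.07 ± 0.08; limma adjusted p = 0.913). Its signal ran from 0.398 to 0.572 (median 0.483) times the chip median in ns mutant SAMs, and from 0.420 to 0.561 (median 0.528) times in nonmutant SAMs. The ns values were lower on 4 of 6 arrays and enclosed the nonmutant range. *sps1*, on the side of sucrose synthesis, read from 0.101 to 0.266 (median 0.127) times the chip median in ns and from 0.0969 to 0.282 (median 0.159) times in nonmutant SAMs. Its log2 ratio was -0.15 ± 0.14 (limma adjusted p = 0.862), with 5 of 6 arrays below 0. With no background correction it was -0.0051 and with plain subtraction -0.26, and without replicate 2 or 4 it was -0.07 or -0.27. Both groups of *sps1* spanned nearly the same range, close to background.

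Of the transport genes, *sut1* had a mean log2 ratio of 0.08 ± 0.08 over its 3 spots on SAM 3.0 (limma adjusted p = 0.909), with 4 of 6 arrays above 0. Probe 8334, the bright one, read from 6.96 to 10.7 (median 8.39) times the chip median in ns mutant SAMs, and from 6.86 to 10.1 (median 7.33) times in nonmutant SAMs. It was higher in ns on 5 of 6 arrays, at log2 0.10 ± 0.08 (limma adjusted p = 0.895), and the groups overlapped. Probe 6557, with the same accession, gave 0.07 ± 0.10, and the dimmest *sut1* spot, probe 3282, 0.07 ± 0.08. The mean takes all 3 spots as *sut1*, and whether the unlike spots of DN219973 hold the same cDNA was not tested. At probe 6557 the mean log2 ratio with the dye effect left in was 0.51 on the 3 arrays with ns on Cy5 and -0.36 on the 3 with ns on Cy3. Probe 8334 gave 0.12 and 0.07 in the 2 orientations. Of the 31 spots, 21 had a dye effect that exceeded the ns effect.

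*MST1* had the widest spread of all. It read from 0.0423 to 0.259 (median 0.118) times the chip median in ns mutant SAMs, and from 0.0725 to 0.275 (median 0.102) times in nonmutant SAMs. The log2 ratios of the 6 arrays ran from -1.23 to 0.84, with an SD of 0.741, and averaged 0.01 ± 0.20 (limma adjusted p = 0.997). Its ratio moved with the correction for background. With plain subtraction of the background its log2 ratio was 0.99, and in the authors' own values 1.01 (limma adjusted p = 0.891 and adjusted p = 0.888). Neither value passed the test.

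**Figure D4:**
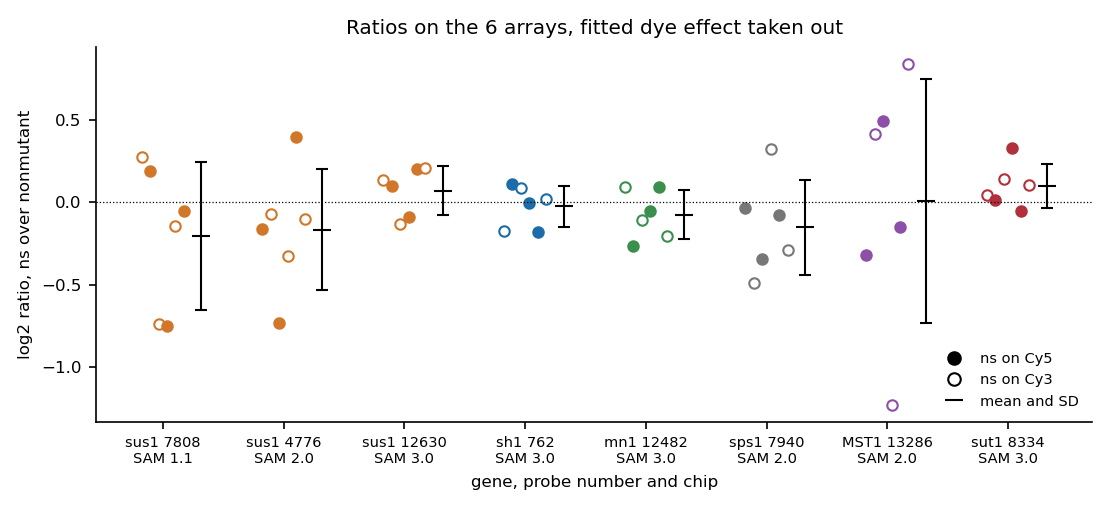
Log2 ratio of ns over nonmutant on each of the 6 arrays at 8 spots, with the fitted dye effect taken out. Filled points have ns on Cy5 and open points ns on Cy3, the bars give the mean and SD, every spot has points on both sides of 0, and *MST1* spans -1.23 to 0.84.

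The transport and cleavage genes were then compared array by array, as the median log2 ratio of each class on the same array. On SAM 3.0 the 3 transport spots had medians from -0.05 to 0.15 and the 7 cleavage spots from -0.14 to 0.11. The difference, transport minus cleavage, averaged 0.05 with an SD of 0.165 and was above 0 on 4 of 6 arrays. On SAM 2.0 the class of transport genes is the *MST1* spot alone, and the difference from the 5 cleavage spots averaged 0.09 with an SD of 0.653, above 0 on 3 of 6 arrays. The difference between the classes was smaller than its spread between arrays on both chips. SAM 1.1 holds 14 cleavage spots and 0 transport spots. The paper reports another gene, a putative sugar transporter, as lower in the ns mutant SAM on arrays and by quantitative RT-PCR. The gene rule did not take it in, so the transport values here do not cover it.

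The ratios of *sh1* and *sus1* varied more between replicates than their means departed from 0. Replicates with the same number on different chips have different dye assignments in part, and the values here have the fitted dye effect taken out. Of *sus1*, replicate 4 had means of -0.48 (SAM 1.1), -0.36 (SAM 2.0) and -0.16 (SAM 3.0), and 13 of its 14 spots were below 0. In replicate 3 it was -0.33, -0.45 and -0.15, with 12 of 14 spots below 0. In the other 4 replicates it lay between -0.10 and 0.28 on all chips. *sus1* was therefore lowest in ns relative to nonmutant SAMs in the same 2 replicates on each chip.

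*sh1* had another order. In replicate 3, where *sus1* was low, *sh1* averaged 0.40 (SAM 1.1), 0.34 (SAM 2.0) and 0.08 (SAM 3.0). In replicate 1 it averaged -0.33, -0.39 and -0.17, with 10 of 11 spots below 0, and in replicate 5 -0.12, -0.22 and -0.18, with 9 of 11 below 0. In replicate 4 the means were -0.30, -0.09 and -0.0032, again with 10 of 11 spots below 0. The difference *sh1* minus *sus1* on an array thus reached 0.72, 0.79 and 0.24 in replicate 3 and -0.61, -0.32 and -0.25 in replicate 1 on the 3 chips. Averaged over the 6 arrays it was 0.04, 0.02 and -0.03, with SDs of 0.429, 0.466 and 0.198. The replicates were singled out after their values were seen, and no test was made of them. Where the chips were hybridized with RNA of the same pools, the recurrence is of the same samples and not of further plants.

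**Figure D5:**
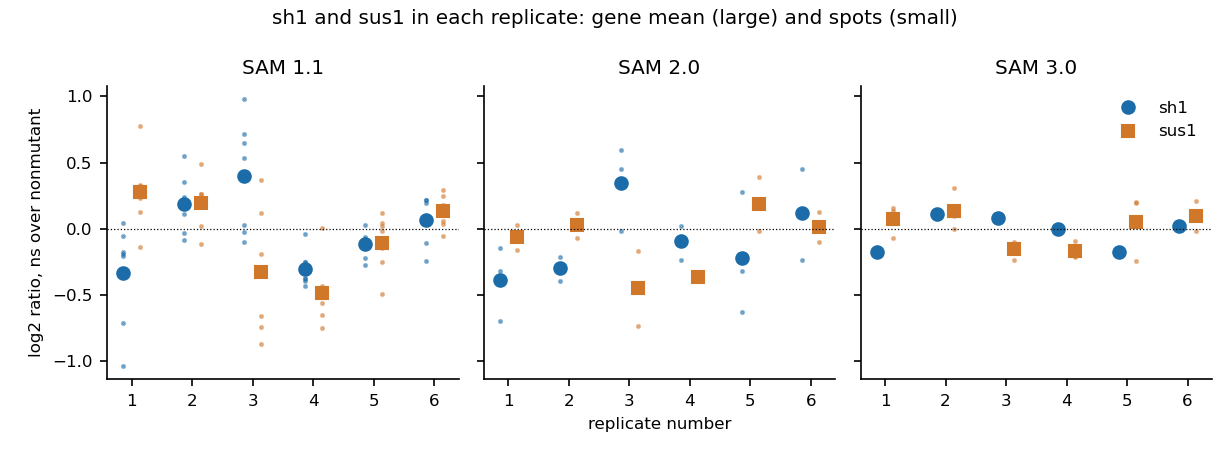
Log2 ratio of ns over nonmutant for *sh1* (circles) and *sus1* (squares) in each replicate of each chip, as gene means (large) and single spots (small), with the fitted dye effect taken out. On all 3 chips *sus1* is lowest in replicates 3 and 4, while *sh1* is above 0 in replicate 3 and below 0 in replicates 1, 4 and 5.

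Other genes of sugar use were read from the same fit. The list, made by symbol, covers 30 spots of 10 genes, among them the fructokinases *frk1* and *frk2*, which phosphorylate fructose, the phosphohexose isomerase *phi1*, the sucrose phosphate phosphatase *spp2*, the trehalose phosphate phosphatase *ra3*, which regulates inflorescence branching, and *snrk1* and *akin1*, genes of the SnRK1 kinase complex, which responds to energy supply. By their letters alone it also took in *pltp* and *plt2*, which are phospholipid transfer protein genes, and *tmt*. Their spots are among the 30, so the counts and the median below are not those of sugar genes alone. Of the 30 spots 0 were called by limma, where 0.0104%, 0.0355% and 0.0125% of all spots of the 3 chips were. By sign 16 were above 1 and 14 below, and the median log2 ratio was 0.02. At an unadjusted p under 0.05 there were 2 of 30, where 5.18%, 6.48% and 5.19% of all spots of the 3 chips lay. One was a *phi1* spot of SAM 1.1, probe 17067, at log2 0.30 (limma adjusted p = 0.83). The second was a *frk1* spot of SAM 3.0, probe 14841, at log2 -0.24 and below 0 on all 6 arrays (limma adjusted p = 0.879). The other *phi1* spots of the 3 chips lay between -0.06 and 0.04. The other 2 *frk1* spots of SAM 3.0 were at -0.17 and -0.16, while *frk1* on SAM 1.1 and SAM 2.0 was at 0.03 and 0.11.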

How the data were processed

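The tables that the authors deposited give, per array and channel, the scanned intensity of the spots and of the glass around them. They also give the natural log of the channels, which the authors had corrected for background, smoothed by LOWESS and centred. Ratios that the authors deposited were not used. Here the mean intensity was corrected with the median background by normexp (offset 50), log ratios were normalized by loess (span 0.3) and channels were set to a common median. The low, mid and high scans of SAM 3.0 were averaged to 1 array. A dye effect and an ns effect were fitted to the 6 arrays of each chip in limma 3.58.1 (R 4.3.3) with Benjamini-Hochberg adjustment over all spots of the chip, and a spot was called at an adjusted p under 0.05. The ns and nonmutant RNA of a replicate share an array, which pairs them. Values of single arrays are given with the fitted dye effect taken out, unless the 2 orientations are named. The procedure was tested on simulated data.

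Genes were named from the platform annotation, where 3845 spots have 1 gene and 24 have several, with symbols from RefSeq's maize genes (assembly Zm-B73-REFERENCE-NAM-5.0). The gene rule, the lists and the tests were chosen with earlier results of these data known. All 6 member genes are named. A spot is given array by array where it had the lowest unadjusted p of its enzyme or transporter class on its chip, as none had one under 0.05, and the single *sh1* spot of SAM 3.0 was added. Alternatives are given in the closing section. The number of arrays limits the precision.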

Additional observations from a re-analysis of the deposited data

How the results depend on the processing

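Under all 21 alternatives 0 of the 31 spots were called, with 0 to 2 spots at an unadjusted p under 0.05. Over all spots of a chip 0% to 2.11% were called, and 0.1% to 21.2% had an unadjusted p under 0.05. With plain subtraction, the authors' values or the test of the methods, 0 spots of any chip were called. The count of 0 among the 31 therefore had little room to change. The alternatives changed the background (subtracted plainly, or left in), the normalization (centring only, or arrays scaled), the values (the authors' own, or a single scan of SAM 3.0) and the test (that of the methods, weighted arrays, a fit with the dye left out or without the replicate block, or adjustment across chips). Others left out dim spots (27 of 31 stayed) or 1 replicate, and one, added after the data were seen, used median foregrounds. Array weights gave *sus1* probe 8923 a log2 ratio of -0.29 (unadjusted p = 0.0222; limma adjusted p = 0.17), while 21.2% of all spots of SAM 1.1 then had an unadjusted p under 0.05. Class medians moved by less than their SD between arrays, with that of *sut1* between 0.0021 and 0.14 and that of the sucrose synthase spots between -0.09 and 0.04, -0.18 and -0.04, and -0.03 and 0.03 on the 3 chips.

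No ratio that changed sign had passed the test, and the cause was not tested. *MST1* turned to -0.068 with median centring, -0.017 with scaling, -0.069 with array weights and -0.048 with median foreground, and lay between -0.20 and 0.32 with a replicate left out. The low scan alone gave *sus1* probe 12630 a log2 ratio of 0.24, and the mid scan alone gave *mn1* -0.17. The high scan alone turned *mn1* to 0.0029, *sus1* probe 12630 to -0.065, the *sus1* mean of SAM 3.0 to -0.031 and *sh1* probe 762 to 0.016. On SAM 1.1 the *sh1* mean turned to 0.014 with median centring. With a replicate left out the *sh1* mean of SAM 1.1 lay between -0.12 and 0.062, the *sus1* mean between -0.13 and 0.056 on SAM 1.1 and between -0.025 and 0.049 on SAM 3.0, and *sh1* probe 762 between -0.056 and 0.015.

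Without the replicate block, with the channels as separate samples, the ratios kept their values (log2 -0.20 to 0.13) and 0 spots were called. Arrays with the same replicate number on 2 chips deviated together over the genes on both, with r from 0.0588 to 0.408, against -0.330 to 0.225 for different numbers. In 17 of 18 pairs of the same number r was over 0.1. Dixon's test set no array apart in 41 groups of 6. It was run with the fitted dye effect taken out, which gives the arrays of both dye orientations the same mean. A single array can then hardly stand apart, so no conclusion is drawn from the test.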
